A study of Arabidopsis thaliana with 4 samples.

Results

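Genes of 3 plant cell wall families were read across 4 single-colour ATH1 arrays of whole Arabidopsis thaliana seedlings. The members were the probe sets with a single annotated gene whose symbol is XTH plus a number, GH9 plus a letter and a number, or TBL plus a number, leaving out the loci AT4G10300 to AT4G20500. This gave 43 of the 22746 probe sets that are no controls: 8 XTH, 14 GH9 and 21 TBL probe sets, each of a different gene. The current gene table carries 30 XTH, 21 GH9 and 41 TBL symbols, and the genes without a member probe set were not analysed here.

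The groups were a T-DNA line labelled as a knockout of CESTA (CES), with 2 arrays, a line labelled as an enhancer trap of CESTA, with 1 array, and the Columbia-0 wild type, with 1 array. The CES protein is a bHLH transcription factor that acts in responses to brassinosteroid hormones. All groups share the Col-0 background and an age of 14 days, after 2 days at 4 °C and growth on sucrose agar at 24 °C in 16 h of light and 8 h of dark. The labels also tag the enhancer-trap line as a gene knockout, yet its CES signal was 4124, against 7.29 and 5.35 in the knockout arrays and 0.533 in wild type. The knockout and wild-type readings were all below the background level of 10.6 described below. A difference in CES between knockout and wild type can thus not be read from these arrays. Each genotype is represented by 1 line, and how many plants were pooled per array is not given in the sources used here.

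Plant primary walls are cellulose microfibrils tied together by hemicelluloses, mainly xyloglucan, in a pectin gel, and growth requires that this network be loosened. XTH enzymes cut xyloglucan chains and rejoin them to other chains, or in a few cases only cut them. GH9 enzymes are endoglucanases that cut beta-1,4-glucan chains: class A members sit in the membrane and take part in cellulose synthesis, class B members are secreted, and class C members carry an added cellulose-binding module. TBL proteins, named after a trichome mutant with reduced cellulose birefringence, include the O-acetyltransferases that decorate xylan, mannan and xyloglucan in the Golgi. Brassinosteroids promote cell elongation, and several XTH and expansin genes are known brassinosteroid targets in seedlings.

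Array medians lay between 38.5 and 39.6 signal units. The knockout and enhancer-trap arrays and the wild type all read the leaf markers LHCB4.1 and LHCB4.2 (4924 to 5825) and the root marker PYK10 (3308 to 4112). Probe sets for Bacillus transcripts, absent from plants, reached at most 10.6, and that value serves here as the background level. The 3'/5' signal ratio of GAPDH, a sign of RNA integrity, was 1.86 and 2.01 in the knockout arrays and 1.38 in the enhancer-trap array, against 1.70 in wild type. A further GAPDH probe pair gave 0.963 and 0.925 in the knockout arrays and 1.06 in the enhancer-trap array, against 0.897 in wild type. The same ratio for actin was 3.12 and 2.04 in the knockout arrays and 2.55 in the enhancer-trap array, against 2.49 in wild type, so the knockout replicates, which give the only spread, lay furthest apart. The part of RNA integrity in the results below was not tested.

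Of the 43 members, 24 passed the signal filter (a mean log2 signal in the upper 60% of probe sets): 6 XTH, 5 GH9 and 13 TBL. Calls among these 24 were few, as they were over all tested probe sets. In the enhancer trap against wild type 1 of 24 rose and 0 fell (limma, Benjamini-Hochberg adjusted p under 0.05). Over all tested probe sets 4.29% were called there, 2.04% higher and 2.26% lower. At an unadjusted limma p under 0.05 there were 6 of 24, beside 12.9% of all tested probe sets. Between the knockout and wild type 0 of 24 passed by limma, with 2 at an unadjusted p under 0.05 (5.67% of all tested probe sets), beside 0.183% of all tested probe sets called, 0.125% higher and 0.0586% lower. Between the knockout and the enhancer trap 1 rose and 2 fell, beside 5.99% of all tested probe sets called, 3.25% higher and 2.74% lower. In that comparison 7 of 24 had an unadjusted limma p under 0.05, beside 15.7% of all tested probe sets. The unadjusted counts were not compared with these shares by a test. The 1 call against wild type is 4.17% of the members, near its background share, and the 3 calls are 12.5% of the members, a difference that carries no test. The 3 comparisons share arrays, so a gene extreme in the enhancer-trap array appears in both of its comparisons.

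**Figure D1:**
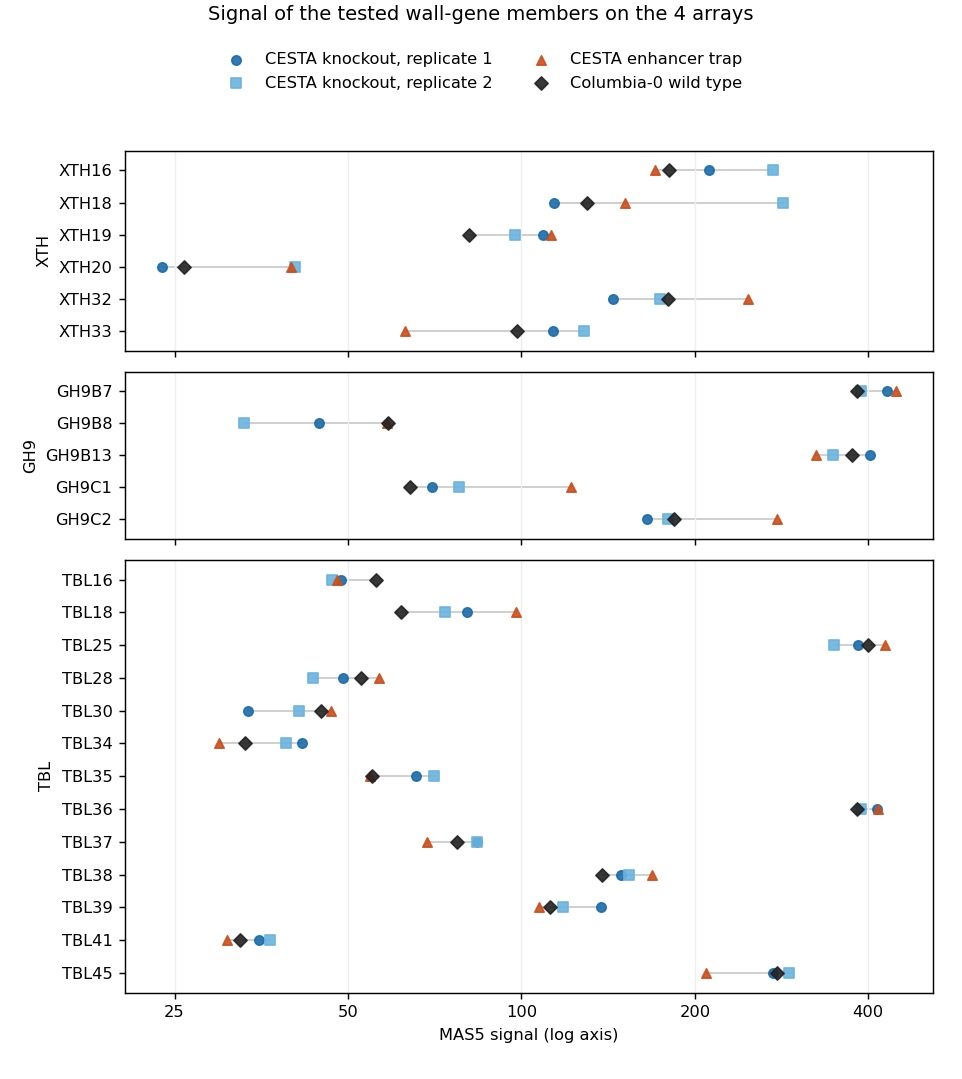
MAS5 signal (log axis) of the 24 tested members on each of the 4 arrays, with XTH, GH9 and TBL genes in separate panels. GH9C1, GH9C2 and XTH32 have the enhancer-trap triangle to the right of all other arrays and XTH33 has it to the left, while XTH18 has its widest gap between the knockout replicates (113.7 and 284.3). Positions along the axis are not comparable between genes, since each probe set has its own response.

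The GH9 members with a call were those of class C, each in 1 comparison. GH9C1 (AT1G48930) read 70.1 and 78.0 in the knockout arrays and 122.0 in the enhancer-trap array, against 64.2 in wild type. The enhancer-trap reading was 1.56 times the highest of the other arrays. GH9C1 rose by 0.92 on the log2(signal + 1) scale in the enhancer trap against wild type (SE 0.263, 95% interval 0.39 to 1.45, limma adjusted p = 0.0309). Between the knockout and the enhancer trap it was at -0.72 (SE 0.228, limma adjusted p = 0.0506), just outside the threshold. Against wild type the knockout arrays were at 0.20 (95% interval -0.26 to 0.66).

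GH9C2 (AT1G64390), the other class C member, read 165.0 and 179.5 in the knockout arrays and 277.7 in the enhancer-trap array, against 184.0 in wild type. It fell by 0.69 in the knockout against the enhancer trap (SE 0.178, 95% interval -1.05 to -0.33, limma adjusted p = 0.0104). In the enhancer trap against wild type the value was 0.59 (SE 0.206, adjusted p = 0.109), and in the knockout against wild type -0.10 (95% interval -0.46 to 0.26). In both class C genes the enhancer-trap array stood above all 3 others, by 1.51 times in GH9C2. Both calls were lost without the intensity trend in the variance and without the signal filter (adjusted p between 0.0934 and 0.214), and the GH9C1 call also with median centring (adjusted p = 0.0852).

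The class B members showed no call. GH9B7 read 431.0 and 388.7 in the knockout arrays and 447.6 in the enhancer-trap array, against 382.5 in wild type, with log2 values of 0.23 for the enhancer trap and 0.10 for the knockout against wild type. GH9B13 read 402.9 and 347.6 in the knockout arrays and 324.5 in the enhancer-trap array, against 374.7 in wild type. Its log2 values were -0.21 for the enhancer trap and -0.0016 for the knockout against wild type. For GH9B13 the wild-type reading fell between the knockout replicates, and for GH9B7 the enhancer trap lay just above and wild type just below them.

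GH9B8 had another pattern, with 44.5 and 33.0 in the knockout arrays and 58.3 in the enhancer-trap array, against 58.7 in wild type. Both knockout readings lay below the others, while the enhancer trap and wild type read nearly alike. The difference was -0.60 against wild type (95% interval -1.16 to -0.037, limma adjusted p = 0.842) and -0.59 against the enhancer trap (adjusted p = 0.278), and neither passed. Of the 3 tested class B genes, 0 passed in any comparison. Of the 2 tested class C genes GH9C1 passed in the enhancer trap against wild type and GH9C2 in the knockout against the enhancer trap. Over all tested probe sets 4.29% and 5.99% were called in these 2 comparisons, and 0.183% in the knockout against wild type. For 3 genes a count of 0 is near these shares. The difference between the classes was not tested.

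Among the XTH genes the clearest change was in XTH33 (AT1G10550), which encodes an XTH with a predicted membrane anchor. It read 113.6 and 128.3 in the knockout arrays and 62.8 in the enhancer-trap array, against 98.3 in wild type. The enhancer-trap reading was the lowest, at 0.638 times the next array. XTH33 was higher by 0.93 in the knockout than in the enhancer trap (SE 0.215, 95% interval 0.50 to 1.37, limma adjusted p = 0.00317). The enhancer trap against wild type was at -0.64 (SE 0.248, adjusted p = 0.177), and the knockout against wild type at 0.29 (95% interval -0.14 to 0.73). The XTH33 call was lost without the signal filter (adjusted p = 0.0780) and without the intensity trend (adjusted p = 0.0585).

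XTH32 (AT2G36870), of the clade whose members act as xyloglucan hydrolases, ran the other way. It read 144.0 and 173.8 in the knockout arrays and 247.6 in the enhancer-trap array, against 180.0 in wild type. The enhancer-trap array was highest, at 1.38 times the next one. XTH32 fell by 0.64 in the knockout against the enhancer trap (SE 0.184, 95% interval -1.01 to -0.27, limma adjusted p = 0.0234). The enhancer trap against wild type was at 0.46 (adjusted p = 0.327) and the knockout against wild type at -0.18 (adjusted p = 1.00). This call was lost without the signal filter, without the intensity trend and with median centring (adjusted p between 0.0897 and 0.202). Within the XTH family 1 call was thus higher in the knockout than in the enhancer trap and 1 lower.

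XTH18, XTH19 and XTH20 belong to a group of closely related XTH genes expressed in roots, and XTH19 and XTH20 also act in the rejoining of wounded tissue. XTH19 (AT4G30290) read 108.9 and 97.5 in the knockout arrays and 112.7 in the enhancer-trap array, against 81.0 in wild type. Wild type was the lowest array here, but the values of 0.47 for the enhancer trap (adjusted p = 0.429) and 0.34 for the knockout (adjusted p = 0.993) did not pass. XTH20 (AT5G48070) read 23.8 and 40.5 in the knockout arrays and 39.9 in the enhancer-trap array, against 25.9 in wild type. Its knockout arrays lay on either side of the enhancer trap and wild type, with values of 0.60 for the enhancer trap (95% interval -0.18 to 1.38) and 0.25 for the knockout (95% interval -0.42 to 0.92) against wild type.

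XTH18 (AT4G30280) read 113.7 and 284.3 in the knockout arrays and 151.4 in the enhancer-trap array, against 129.7 in wild type. The knockout replicates alone were 2.50-fold apart, more than any difference between groups for this gene, and they enclosed both other arrays. The knockout value of 0.47 against wild type became -0.19 without replicate 2 and 1.13 without replicate 1. XTH18 was the only 1 of the 24 tested members whose knockout arrays differed at least 2-fold, with 0.689% of all tested probe sets doing so. The median ratio between the knockout arrays was 1.25 for XTH, 1.11 for GH9 and 1.07 for TBL genes, beside 1.13 over all tested probe sets. XTH20, with 1.70-fold between its knockout arrays, turned likewise: its knockout value against wild type was -0.12 without replicate 2 and 0.62 without replicate 1.

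XTH16 (AT3G23730) read 211.5 and 273.4 in the knockout arrays and 170.6 in the enhancer-trap array, against 180.2 in wild type. Both knockout arrays lay above the enhancer trap and wild type. The differences of 0.41 against wild type (95% interval 0.045 to 0.78, limma adjusted p = 0.770) and 0.49 against the enhancer trap (adjusted p = 0.115) did not pass. The enhancer trap against wild type was at -0.08. Over the 6 tested XTH genes the median log2 value was 0.34 in the enhancer trap and 0.32 in the knockout against wild type. The medians over all tested probe sets were -0.011 and -0.013. Above zero were 4 and 5 of the 6 XTH genes, beside 48.6% and 47.1% of all tested probe sets. Both XTH medians use the same wild-type array, so they are not independent. The knockout median of 0.32 rested on its replicates unequally, at 0.042 without replicate 2 and 0.49 without replicate 1.

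**Figure D2:**
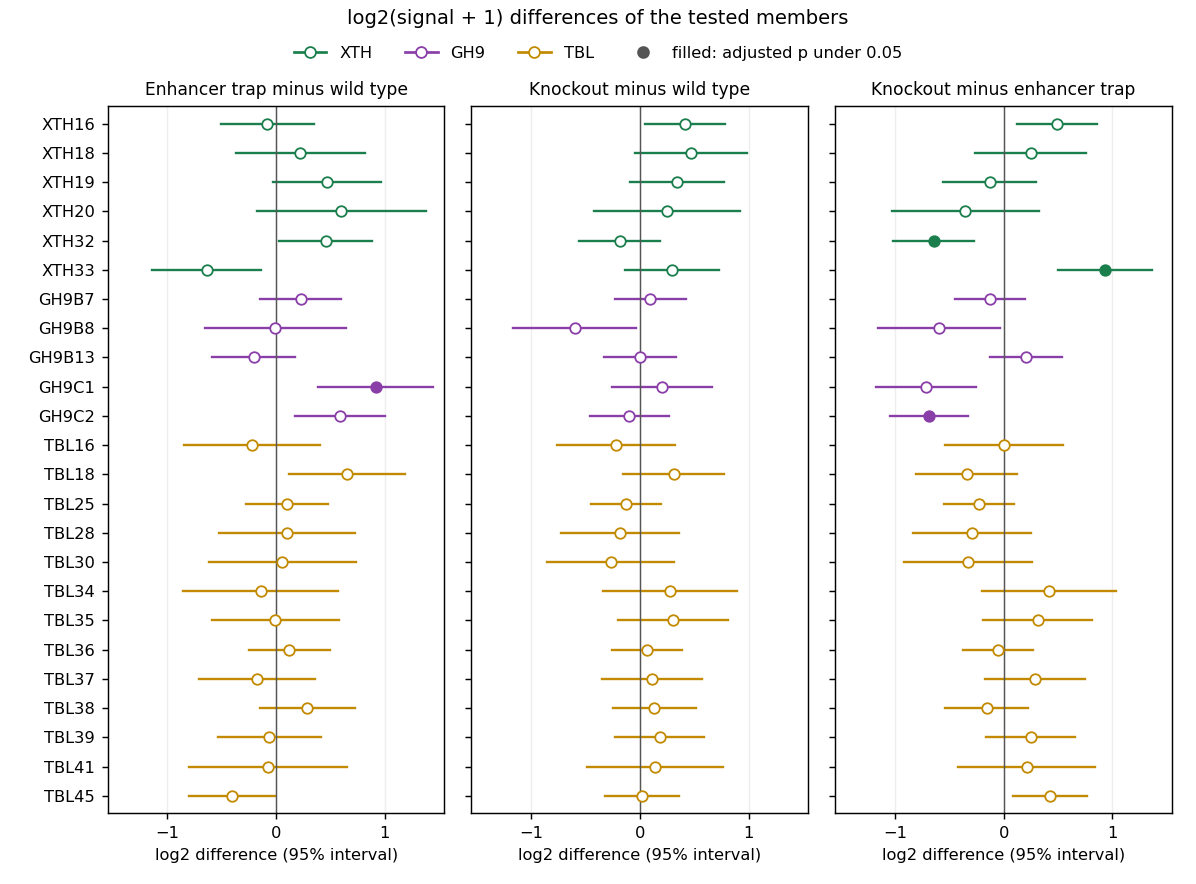
Differences of log2(signal + 1) with 95% intervals for the 24 tested members in the 3 comparisons, coloured by family, with filled points past the limma threshold. GH9C1 is filled in the left panel (0.92), none in the middle panel, and XTH33 (0.93), XTH32 (-0.64) and GH9C2 (-0.69) in the right panel, while all TBL points are open.

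The TBL genes gave 0 calls among 13 tested members in each of the 3 comparisons by limma. Over all tested probe sets the share with a call was 4.29% for the enhancer trap and 0.183% for the knockout, each against wild type. It was 5.99% between the knockout and the enhancer trap. Among 13 TBL genes a count of 0 is near these shares, and a difference from the other families was not tested. At an unadjusted p under 0.05 there were 2 in the enhancer trap against wild type, 0 in the knockout against wild type and 1 in the knockout against the enhancer trap, beside 12.9%, 5.67% and 15.7% of all tested probe sets. TBL28, TBL30, TBL32, TBL34 and TBL35 are known as xylan acetyltransferases, and 4 of the 5 were tested. Their values lay between -0.14 and 0.10 in the enhancer trap against wild type and between -0.27 and 0.30 in the knockout against wild type. Xylan is the main hemicellulose of secondary walls, such as those of xylem vessels.

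TBL34 (AT2G38320) read 41.6 and 39.0 in the knockout arrays and 29.9 in the enhancer-trap array, against 33.1 in wild type. TBL35 (AT5G01620) read 65.7 and 70.5 in the knockout arrays and 54.7 in the enhancer-trap array, against 54.9 in wild type. In both genes the knockout arrays were the upper pair, and neither difference passed (0.28 and 0.30 against wild type, 0.42 and 0.31 against the enhancer trap). TBL28 (AT2G40150) and TBL30 (AT2G40160) had the reverse order. TBL28 read 49.1 and 43.4 in the knockout arrays and 56.6 in the enhancer-trap array, against 52.6 in wild type, and TBL30 read 33.5 and 41.1 in the knockout arrays and 46.8 in the enhancer-trap array, against 44.9 in wild type. Neither of these differences passed either, with knockout values of -0.18 and -0.27 against wild type.

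TBL25 (AT1G01430), a mannan acetyltransferase, read 383.2 and 348.9 in the knockout arrays and 428.3 in the enhancer-trap array, against 399.2 in wild type. Its values were 0.10 for the enhancer trap (95% interval -0.27 to 0.48) and -0.13 for the knockout (95% interval -0.45 to 0.20) against wild type. The enhancer trap against wild type gave its largest TBL values in TBL18 and TBL45, and no role is given for either here. TBL18 (AT4G25360) read 80.5 and 73.6 in the knockout arrays and 97.7 in the enhancer-trap array, against 61.8 in wild type. All mutant readings of TBL18 lay above wild type, and the values were 0.65 in the enhancer trap (95% interval 0.12 to 1.19, adjusted p = 0.217) and 0.31 in the knockout (adjusted p = 1.00).

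TBL45 (AT2G30010) read 273.3 and 291.3 in the knockout arrays and 209.2 in the enhancer-trap array, against 277.6 in wild type. The enhancer-trap array stood below the other 3, which read alike. Its value was -0.41 in the enhancer trap against wild type (95% interval -0.80 to -0.012, adjusted p = 0.360) and 0.43 in the knockout against the enhancer trap (95% interval 0.088 to 0.77, adjusted p = 0.152). TBL38 read 148.7 and 153.4 in the knockout arrays and 168.4 in the enhancer-trap array, against 137.7 in wild type, and TBL16 read 48.7 and 46.9 in the knockout arrays and 47.8 in the enhancer-trap array, against 55.9 in wild type. Wild type was the lowest array for TBL38 and the highest for TBL16, and none of their differences passed.

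The remaining tested TBL genes varied little. TBL36 read 413.6 and 388.9 in the knockout arrays and 415.9 in the enhancer-trap array, against 382.1 in wild type, a span of 1.09-fold over all arrays. TBL37 read 83.7 and 83.9 in the knockout arrays and 68.5 in the enhancer-trap array, against 77.4 in wild type. TBL39 read 137.3 and 118.2 in the knockout arrays and 107.2 in the enhancer-trap array, against 112.0 in wild type. TBL37 and TBL39 had their lowest reading in the enhancer trap, as did TBL41, with 35.1 and 36.6 in the knockout arrays and 30.8 in the enhancer-trap array, against 32.4 in wild type. The highest array was 1.09 to 1.58 times the lowest over the 13 TBL genes, 1.17 to 1.90 times over the 5 GH9 genes and 1.39 to 2.50 times over the 6 XTH genes.

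Set against all tested probe sets, the sizes of the differences depended on the family and the comparison. In the enhancer trap against wild type the median absolute log2 value was 0.46 for XTH, 0.23 for GH9 and 0.12 for TBL genes, beside 0.20 over all tested probe sets. For the knockout against wild type it was 0.32, 0.098 and 0.18, beside 0.14. For the knockout against the enhancer trap it was 0.42, 0.59 and 0.29, beside 0.19. No tested member reached an absolute log2 value of 1 in any comparison, while 2.93%, 0.286% and 2.53% of all tested probe sets did in these 3 comparisons. These figures describe 5 to 13 genes each and carry no test.

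**Figure D3:**
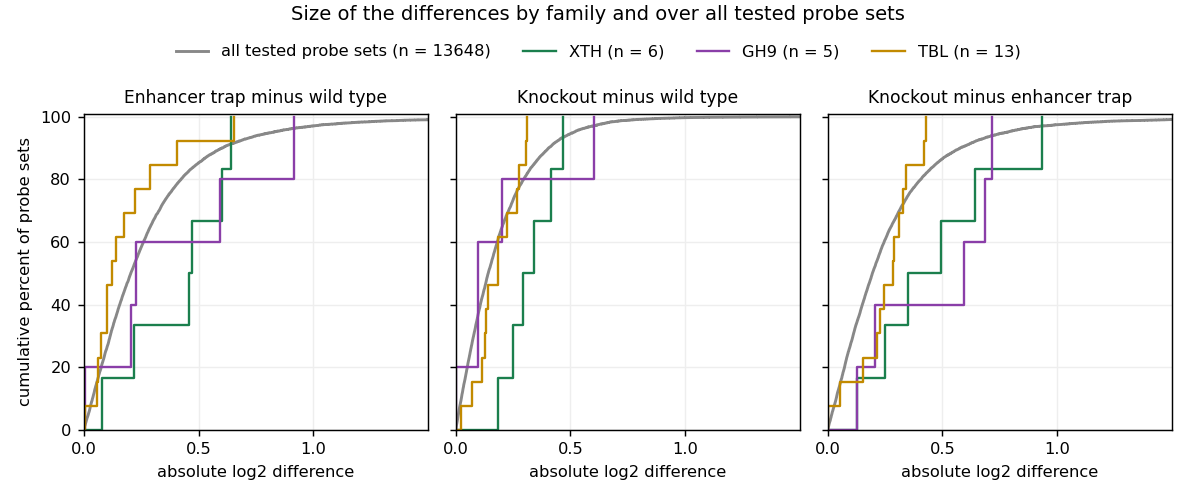
Cumulative percent of probe sets by absolute log2 difference in the 3 comparisons, for all 13648 tested probe sets (grey) and for the 6 XTH, 5 GH9 and 13 TBL genes. The XTH line lies to the right of the grey line over most of its course in each panel, and all family lines reach 100% before a log2 difference of 1.

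The enhancer-trap array stood above all 3 others for 11 of the 24 tested members (30.4% of all tested probe sets) and below all 3 others for 9 (29.8% of all tested probe sets). The knockout arrays both lay above wild type for 13 members (30.8% of all tested probe sets) and both below it for 7 (34.8% of all tested probe sets). Relative to the enhancer trap they both lay above for 9 members (35.8% of all tested probe sets) and both below for 12 (38.2% of all tested probe sets). Of the 13 TBL genes, 6 had the enhancer trap highest and 6 had it lowest. Of the 5 GH9 genes, 4 had both knockout arrays below the enhancer trap, including both class C genes and GH9B8.

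The intervals show what the fit as reported could exclude for members that did not pass. In the enhancer trap against wild type 19 of 23 such members had a 95% interval inside a log2 difference of 1 either way, in the knockout against wild type 23 of 24, and in the knockout against the enhancer trap 17 of 21. For members inside these bounds a 2-fold change lay outside the interval of the fit as reported, while some smaller changes were not excluded with this number of arrays. XTH18 counts as inside in the knockout against wild type, although its knockout arrays lay 2.50-fold apart. Its SE of 0.255 there was 0.435 without the intensity trend and 0.439 without the signal filter, so a 2-fold change is not excluded for it under every setting. Only the 2 knockout arrays give a spread, which every interval borrows for the unreplicated enhancer trap and wild type. A trait of the enhancer-trap line and a deviation of its single array cannot be told apart.

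Several members are neighbours on the chromosome, by gene order in the assembly TAIR10.1, and 2 pairs had both genes tested. XTH18 and XTH19 are adjacent, and their readings did not run together: knockout replicate 2 was the highest array for XTH18 and the second lowest for XTH19. TBL28 and TBL30 are adjacent as well, and both had their highest reading in the enhancer trap and their lower pair in the knockout arrays. GH9B16, GH9B17 and GH9B18 stand in a row, GH9B11 lies beside GH9B12, and TBL21 lies beside TBL19, but all of these were under the signal filter.

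The other 19 members were under the filter, and 10 of them read at or below the background level of 10.6 on all 4 arrays, so no fold is given for them. These were XTH26, a root-hair XTH gene, the class A members GH9A3 and GH9A4, the class B members GH9B6, GH9B11, GH9B12 and GH9B16, and TBL20, TBL42 and TBL43. GH9B5, TBL21 and TBL32 were above background on all 4 arrays. GH9B5 read 10.9 and 17.3 in the knockout arrays and 11.8 in the enhancer-trap array, against 12.7 in wild type, so its groups overlapped.

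TBL21 read 22.5 and 21.0 in the knockout arrays and 27.8 in the enhancer-trap array, against 20.3 in wild type. TBL32, whose probe set name carries the suffix for probes shared by several transcripts, read 25.2 and 14.4 in the knockout arrays and 21.0 in the enhancer-trap array, against 18.0 in wild type. For TBL32 the knockout arrays enclosed both other readings. The other 6 dim members crossed the background level. XTH21, an XTH gene of root growth, read 8.20 and 19.3 in the knockout arrays and 23.4 in the enhancer-trap array, against 15.2 in wild type. TBL26, a mannan acetyltransferase gene, read 7.36 and 9.06 in the knockout arrays and 18.0 in the enhancer-trap array, against 14.3 in wild type. Both knockout readings of TBL26 were within background and both other readings above it.

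TBL15 read 7.90 and 13.5 in the knockout arrays and 1.05 in the enhancer-trap array, against 10.4 in wild type. GH9B17 read 8.43 and 11.2 in the knockout arrays and 2.26 in the enhancer-trap array, against 10.0 in wild type, and GH9B18 stayed between 10.1 and 11.0 on every array. Most of these readings lay near or below background, where MAS5 signals scatter widely. In the fit without the signal filter 0 of the 19 dim members passed limma in any comparison (lowest adjusted p 0.290 in the enhancer trap against wild type, 0.908 in the knockout against wild type and 0.233 in the knockout against the enhancer trap). At an unadjusted p under 0.05 there were 3, 4 and 2 in these comparisons, beside 9.90%, 5.32% and 10.8% of all 22746 probe sets in that fit.

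**Figure D4:**
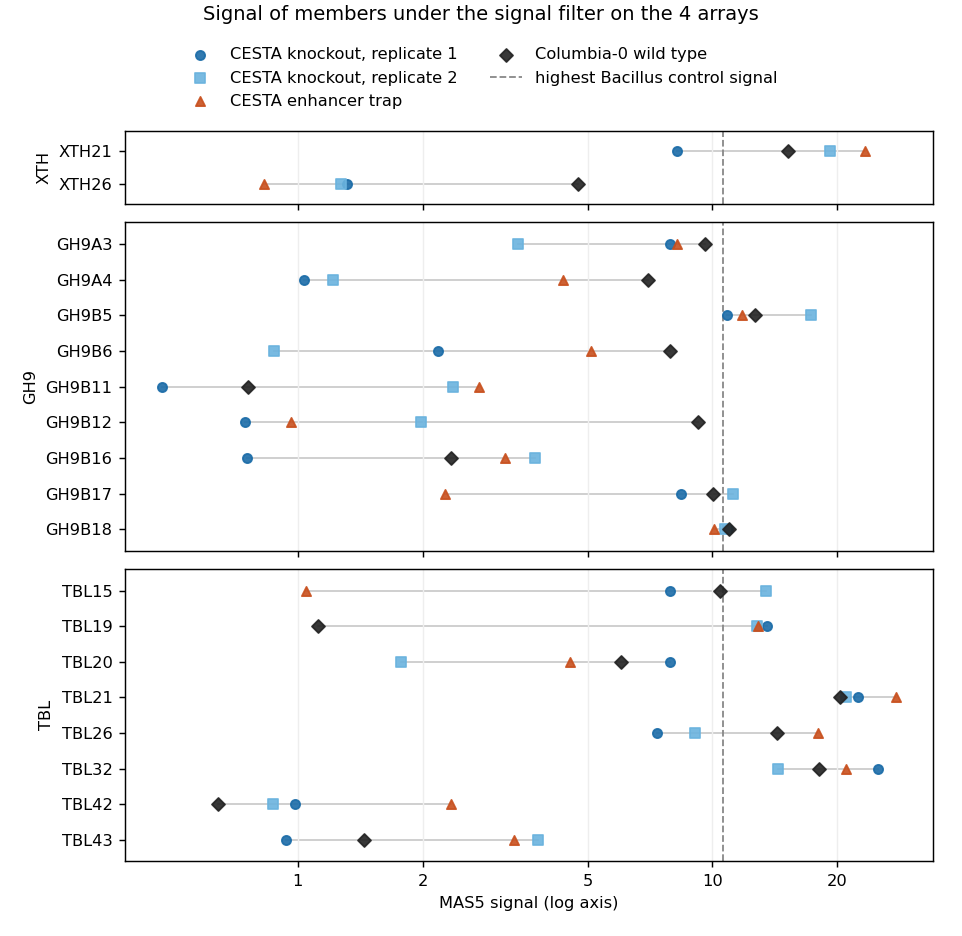
MAS5 signal (log axis) of the 19 members under the signal filter on the 4 arrays, with the highest Bacillus control signal (10.6) as a dashed line. Of the 19, 10 lie wholly left of the line, GH9B5, TBL21 and TBL32 wholly right of it, and TBL19 has only the wild-type diamond left of it.

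The chromosome 4 loci that were left out hold 3 further probe sets with such symbols. TBL23 (AT4G11090), a mannan acetyltransferase gene, read 57.4 and 65.2 in the knockout arrays and 27.0 in the enhancer-trap array, against 60.2 in wild type, and fell by 1.13 in the enhancer trap against wild type (limma adjusted p = 0.0228), a call lost without the filter, without the trend and with median centring (adjusted p between 0.0623 and 0.258). XTH29 and GH9C3 (AT4G18990 and AT4G11050) were under the filter.

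Genes that build the polymers on which these enzymes act were read beside them. Of the cellulose synthesis list 1 of 13 genes was tested, of xyloglucan synthesis and trimming 4 of 17, and of xylan synthesis and acetylation 3 of 17, the others being under the filter or not named by the annotation. IRX15-L, a gene of xylan synthesis, was the only gene of these lists that passed, with 68.6 and 72.4 in the knockout arrays and 123.1 in the enhancer-trap array, against 67.1 in wild type. It rose by 0.87 in the enhancer trap against wild type (SE 0.263, limma adjusted p = 0.0472) and fell by 0.80 in the knockout against the enhancer trap (adjusted p = 0.0235). Both calls were lost without the signal filter, without the intensity trend and with median centring (adjusted p between 0.0727 and 0.241). The rest did not pass in any comparison, and neither did the 2 tested pectin enzyme genes.

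Expansins, which loosen walls without cutting polymers, gave 5 calls among 12 tested genes in the enhancer trap against wild type, where 4.29% of all tested probe sets were called. EXPA7 (1.31), EXLA1 (1.31) and EXPB3 (0.65) rose, and EXPA8 (-1.53) and EXLB1 (-1.37), the last of which lies in the chromosome 4 stretch left out here, fell. The calls of EXLA1 and EXPA8 held in all 7 alternatives, while EXPA7 and EXPB3 lost theirs without the filter or the variance trend, EXPB3 also with median centring, and EXLB1 without the filter. EXLA1 also rose in the knockout against wild type, by 0.89, and there it was the 1 of 12 that passed, beside 0.183% of all tested probe sets. This call was lost without the filter, without the trend and with median centring (adjusted p between 0.118 and 0.908). Between the knockout and the enhancer trap 3 of 12 passed, beside 5.99% of all tested probe sets. EXLB1 (1.44) and EXPA8 (0.89) rose there and EXPB3 (-0.72) fell. Of these, EXPA8 and EXPB3 did not pass without the filter or without the trend. The expansin list was chosen with earlier results of these data known, so its share of calls is no independent finding. The difference between the expansins and the XTH, GH9 and TBL genes was not tested.

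Among markers of organs, 2 of 3 root genes were named and tested, and EXPA7, a root-hair gene, rose in the enhancer trap while PYK10 was at 0.22 (adjusted p = 0.738). The summed signal of both was 3368 and 3681 in the knockout arrays and 4225 in the enhancer-trap array, against 3570 in wild type. Nearly all of this sum was PYK10 (4112 in the enhancer-trap array, 3525 in wild type), and EXPA7 is also counted among the expansins above. The 2 of 4 leaf genes read summed to 11199 and 11166 in the knockout arrays and 9871 in the enhancer-trap array, against 11646 in wild type, with 0 past the test. The summed root markers were highest and the summed leaf markers lowest in the array in which GH9C1, GH9C2 and XTH32 were highest, and their part in these results was not tested. In whole seedlings, a different share of a tissue and a different RNA level per cell cannot be told apart. Of 10 xylem secondary wall genes and 3 genes of dividing cells 0 were named by the annotation, and of 5 trichome genes only AT5G06700, which encodes the founding TBR protein of the TBL family, was tested. It read 376.5 and 385.8 in the knockout arrays and 277.2 in the enhancer-trap array, against 279.7 in wild type, with 0.45 in the knockout against wild type (adjusted p = 0.515).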

How the data were processed

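Transcripts of 4 whole-seedling RNA samples were measured on biotin-labelled 1-colour ATH1 arrays. The authors deposited 1 linear signal intensity for each probe set, and the submitters' processing notes name MAS5 and GCOS without versions. The means of all arrays after trimming 2% at each end were equal, so the arrays had already been scaled. Whether the knockout replicates grew as separate cultures is not given in the labels, and p-values therefore reflect only how these arrays differ, which may be technical.

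After 64 control probe sets were removed, signals were taken as log2(signal + 1), which understates changes of dim genes. A filter at the 40th percentile of the mean log2 signal (4.58) left 13648 probe sets. All of them entered a single fit with 3 group means in R 4.3.3 with limma 3.58.1 (lmFit, then eBayes with an intensity trend, giving 41.8 prior degrees of freedom beside 1 residual one). Tests were two-sided with Benjamini-Hochberg adjustment, and "rose", "fell", "passed" and "called" mean an adjusted p under 0.05. The fit was tested on simulated data with normal noise at the fitted spread. It recovered 63.5% of log2 changes of 1 in the enhancer trap against wild type. For the knockout it recovered 77.5% against wild type and 74.5% against the enhancer trap, so some 2-fold changes would be missed in that setting. The simulation gave all arrays the same spread and probe sets of like intensity the same noise. The single arrays cannot show whether that holds for them. Symbols were taken from the platform annotation, where 13513 probe sets have 1 gene and 8730 have no entry, and loci and gene order from the TAIR10.1 gene table. Every member may be named. Members past the test and the 2 largest rises and falls per family and comparison get all signals and values, and of the other wall gene lists those past the test are named. Members and lists were chosen with earlier results of these data known. Alternatives changed the pseudocount, the filter, the variance trend, the normalization and the replicates used. Plots used Python 3.11.15 and matplotlib 3.10.9.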

Additional observations from a re-analysis of the deposited data

Results flagged for a closer look

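TBL19 was under the signal filter and so entered none of the comparisons, yet it read above the background level of 10.6 in every mutant array and not in wild type. Its signal was 13.5 and 12.8 in the knockout arrays (mean 13.2) and 12.9 in the enhancer-trap array, against 1.12 in wild type. No fold is given, because the single wild-type reading lay below background and all mutant readings were close to it. In the fit without the signal filter TBL19 did not pass limma in any comparison.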

How the results depend on the processing

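No paired analysis was possible because the groups share only replicate number 1. Median centring over the kept probe sets was added after seeing the data. In the knockout against wild type 0 members passed under all 7 alternatives. In the enhancer trap against wild type the 1 call (GH9C1) became 0 without the signal filter, 0 without the intensity trend and 0 with median centring, and GH9C1 passed in the other 4 (adjusted p from 0.0147 to 0.214 over all 7). In the knockout against the enhancer trap the 3 calls became 0 without the filter and 0 without the trend, 2 with median centring, and 4, with GH9C1 added, in the others. Calls over all tested probe sets, 586, 25 and 817 as reported in the order of the comparisons above, were 153, 0 and 231 without the filter, 205, 2 and 335 without the trend, 316, 2 and 511 with median centring, and 692, 59 and 959 with centring over kept probe sets. The share of higher calls, 47.4%, 68.0% and 54.2%, was 44.3%, 50.0% and 60.7% with median centring. Without the filter it was 27.5% in the enhancer trap against wild type and 70.6% in the knockout against the enhancer trap, and without the trend 30.2%, 50.0% and 64.2% in the 3 comparisons. The prior degrees of freedom, 41.8 as reported, were 6.58 without the filter, 7.63 without the trend and 10.7 with median centring, and infinite with centring over kept probe sets. Signs were followed for 18 members, those past the test and the 2 largest rises and falls per family and comparison. TBL25, TBL28, TBL36, TBL37, TBL39 and TBL41 were not among them. Of 363 values of the 18 recomputed with all arrays, 11 turned sign, and of 72 recomputed without a knockout array 7 did (XTH18 and XTH20 in both knockout comparisons, GH9B13 and TBL45 against wild type, TBL16 against the enhancer trap), all from values that did not pass. For quantile normalization, median centring and centring over kept probe sets in turn, GH9B8 (0.0029, 0.013, 0.0069) and TBL35 (0.0092, 0.014, 0.0072) turned in the enhancer trap against wild type, and TBL16 (0.017, 0.011, 0.010) in the knockout against the enhancer trap. GH9B13 turned in the knockout against wild type with median centring (0.031) and centring over kept probe sets (0.024). Leaving out a knockout array leaves no residual degree of freedom, so it gives values without a test. The number of arrays and dim signals limit all of these results.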

Other observations

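Each of 2 further probe sets is annotated to 2 GH9 genes and so belongs to no single member. The probe set of GH9B14 and GH9B15 read 2.69 and 0.907 in the knockout arrays and 2.34 in the enhancer-trap array, against 5.98 in wild type. The probe set of GH9B9 and GH9B10 read 0.193 and 0.573 in the knockout arrays and 4.94 in the enhancer-trap array, against 2.90 in wild type. All these readings were within background.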
